A study of Mus musculus with 12 samples.

Results

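Recruited monocytes and lipid-associated macrophages were followed in mouse liver through 10 marker genes chosen by symbol: Ly6c2, Ccr2, Cx3cr1, Trem2, Gpnmb, Cd9, Spp1, Lgals3, Mmp12 and Fabp5. Each symbol matched a single Ensembl gene among the 24187 genes of the count table. All 10 had enough counts to be among the 22581 genes tested. The question was how these genes differed between uninjured livers and livers injured with acetaminophen (APAP), and whether human alternatively activated macrophages (hAAMs) changed them.

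Bulk RNA sequencing of whole liver tissue covered 12 mice, of which 3 were untreated controls, 5 received APAP and PBS vehicle, and 4 received APAP and hAAMs. The labels give C57BL/6J as the strain of all mice and 350 mg/kg as the APAP dose of both injured groups. The study's methods also name C57BL6/JOlaHsd, an age of 10 to 12 weeks and mice of either sex, and they name 500 mg/kg APAP for the severe model with which these livers are shown. In the 12 livers the Y-linked gene Ddx3y had 3064 to 4281 counts and Xist 10 to 149, the pattern of male mice. In that model vehicle or 1000000 cells were given 16 h after APAP, and the livers were collected 32 h after APAP by one statement and 36 h by another. hAAMs were grown from human CD14+ blood monocytes with CSF1, polarised with IL-4 and IL-13, and cryopreserved before use. The control mice received neither APAP nor vehicle, so the injured groups differed from them in both. The methods also describe fasting before APAP and a warming cabinet after the injection of cells or vehicle. Whether the untreated controls shared these is not stated. Reads were aligned to the mouse genome alone, and the share of reads from the human cells in hAAM-treated livers was not tested.

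Monocytes leave the bone marrow, circulate in the blood and enter injured tissue along chemokine gradients, where they can become macrophages. In liver, they add to the resident Kupffer cells after hepatocyte death and clear debris. Macrophages that take up lipid and dead cells switch on a programme built around the receptor TREM2, and such lipid-associated macrophages have been described in fatty and injured liver. None of the 10 genes is restricted to these cells, and in bulk tissue fewer cells of a type cannot be told apart from less RNA per cell.

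Total counts per liver ran from 47391650 to 74056505. The counts of vehicle replicate 3 and hAAM replicate 4 were nearly alike. They differed from each other by 1.20 times what counting noise gives, while the remaining 35 pairs of injured livers differed by 2.38 to 4.94 times. Whether both libraries came from a single liver was not tested. The labels place them in different groups, so both were kept, and calls of member genes that changed without them are given both ways. Among the controls, replicate 1 stood apart in the monocyte chemoattractant Ccl2, at 34.1 CPM against 1.97 and 0.929 CPM in control replicates 2 and 3. CPM is the number of counts per 1000000 counts of the library after TMM scaling.

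All coordinates are those of GRCm38 as annotated by GENCODE. Ccr2 (ENSMUSG00000049103) spans chr9:124101950-124113557, Cx3cr1 (ENSMUSG00000052336) chr9:119901616-120069879 and Mmp12 (ENSMUSG00000049723) chr9:7344381-7369499. Ly6c2 (ENSMUSG00000022584) lies at chr15:75108158-75111970, Trem2 (ENSMUSG00000023992) at chr17:48346401-48354147, and Gpnmb (ENSMUSG00000029816) at chr6:49036546-49070929. Cd9 (ENSMUSG00000030342) lies at chr6:125460266-125494791 and Spp1 (ENSMUSG00000029304) at chr5:104435118-104441050. Lgals3 (ENSMUSG00000050335) lies at chr14:47367751-47386160 and Fabp5 (ENSMUSG00000027533) at chr3:10012548-10016607. Trem2 and Lgals3 shared none of their 50-base stretches with transcripts of other genes. Ly6c2 shared 14.5%, Cd9 14.4% and Spp1 11.6% of theirs, and the other members shared between 0.0154% for Gpnmb and 5.48% for Fabp5. For Spp1 these stretches all came from Gm42793, which shares 309 exon bases with it on the same strand. The counts of Ly6c2, Cd9 and Spp1 are therefore less certain than those of Trem2 and Lgals3.

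The gene whose reads are hardest to assign is Ly6c2, since its neighbour Ly6c1 is nearly a copy of it. The coding sequences of both have 393 bases, of which 384 are identical (97.7%). The first 150 coding bases are shown because 6 of the 9 differing bases, in capitals, lie there, so that long stretches of the remaining coding sequence are identical in both genes. The stretches were taken from the GENCODE transcripts:
Ly6c2: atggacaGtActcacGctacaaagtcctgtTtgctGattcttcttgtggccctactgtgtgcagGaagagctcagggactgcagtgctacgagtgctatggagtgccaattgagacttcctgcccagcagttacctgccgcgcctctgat
Ly6c1: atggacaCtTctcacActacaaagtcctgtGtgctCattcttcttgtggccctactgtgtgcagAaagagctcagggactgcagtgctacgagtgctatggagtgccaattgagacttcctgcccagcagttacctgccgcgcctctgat

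The bases just upstream of the transcript starts are shown for Trem2 and Mmp12, the members with a match to TGANTCA, the pattern searched for AP-1. N stands for any base, which was A in Trem2 and G in Mmp12. Spp1 is shown as an example of a match to the motif of PU.1 and other ETS factors. Matches were also found in Ly6c2 and Cd9, which are not shown. RefSeq start windows for GRCm38.p6 were found for 9 of the 10 members, 12 windows in all, and not for Fabp5. The 250 bases before each start were searched on both strands for TGANTCA (AP-1), AGGAAGT (PU.1 and other ETS factors), CATGTG (the MiT family E-box) and CACGTG (E-box). No matches overlapped one another within a window. TGANTCA occurred in 2 of the 12 member windows, in Trem2 and Mmp12, and in 6.75% of all 32851 windows. AGGAAGT occurred in 4 windows, both of Ly6c2, 1 of Spp1 and the Mmp12 window of its non-coding transcripts, which is not shown, and in 7.69% of all windows. The Ly6c2 windows overlap, and the same site lies in both, so the 4 windows are not independent. CATGTG occurred in 2 member windows and 12.3% of all windows, and CACGTG in 0 member windows and 6.02% of all windows. In the stretches, from chr17:48346251-48346400, chr9:7347224-7347373 and chr5:104434961-104435110 on the plus strand, capitals mark the matches, of which CACATG is CATGTG on the minus strand:
Trem2: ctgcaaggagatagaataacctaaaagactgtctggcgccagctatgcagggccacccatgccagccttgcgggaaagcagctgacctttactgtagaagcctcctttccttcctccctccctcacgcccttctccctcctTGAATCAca
Mmp12: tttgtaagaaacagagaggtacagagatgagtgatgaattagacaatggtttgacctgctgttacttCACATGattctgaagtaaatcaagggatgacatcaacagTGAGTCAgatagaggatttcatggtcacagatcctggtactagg
Spp1: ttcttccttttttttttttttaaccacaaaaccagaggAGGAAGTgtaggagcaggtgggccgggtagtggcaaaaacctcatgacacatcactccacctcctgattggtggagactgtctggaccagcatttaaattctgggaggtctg

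Against control, 6 of the 10 genes were higher and 1 was lower in vehicle-treated livers at an FDR under 0.05 in edgeR's quasi-likelihood test. Ccr2, Cx3cr1, Trem2, Gpnmb, Lgals3 and Mmp12 rose and Fabp5 fell. Of all genes tested, 29.8% passed the same threshold, 15.0% higher and 14.8% lower. The same 7 genes were called in the same directions in hAAM-treated livers, where 20.7% of all genes passed, 10.7% higher and 9.96% lower. The comparisons with control share the 3 control livers. In each of them the 7 called genes were also the 7 whose groups did not overlap, which held for 34.8% of all genes with vehicle and 28.5% with hAAMs. The median log2 fold change of the 10 members was 2.47 with vehicle and 2.36 with hAAMs, beside 0.01 and 0.02 over all genes tested. The members were chosen with earlier results of these data known, so their counts and medians beside all genes are a description.

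**Figure D1:**
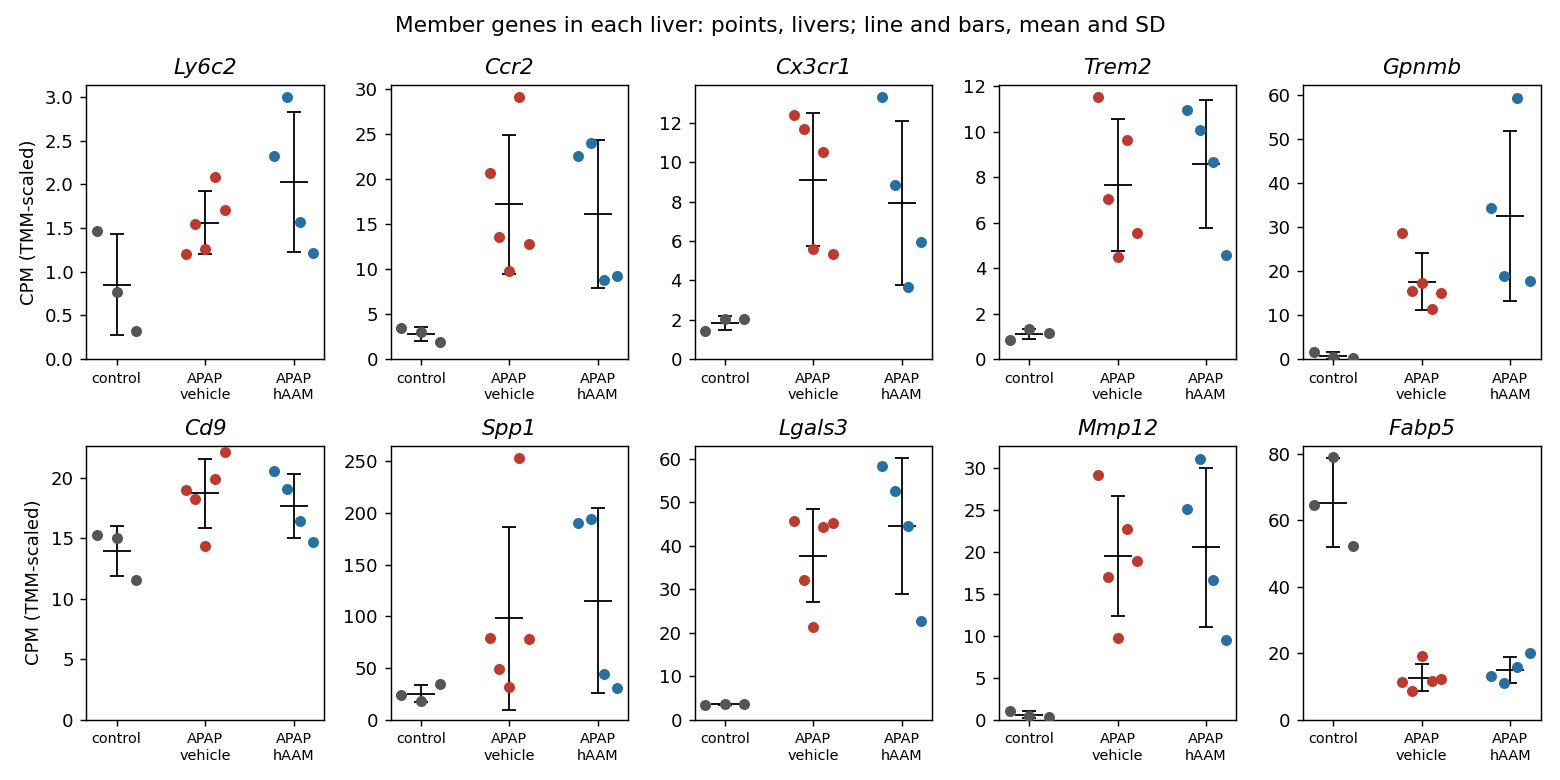
CPM (counts per 1000000, TMM-scaled, linear axes from 0) of the 10 genes in each liver of the control (n = 3), APAP vehicle (n = 5) and APAP hAAM (n = 4) groups, with the mean as a line and the SD as bars. Trem2, Gpnmb, Lgals3 and Mmp12 in all 9 injured livers lie above the 3 controls, Fabp5 lies below them, and Ly6c2, Cd9 and Spp1 overlap with control.

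Among the monocyte surface proteins, the chemokine receptor Ccr2, which guides inflammatory monocytes out of bone marrow and into tissue, was at 3.47, 2.99 and 1.92 CPM in control replicates 1 to 3. It was at 20.6, 13.6, 9.76, 29.1 and 12.8 CPM in vehicle replicates 1 to 5. In hAAM replicates 1 to 4 it was at 22.5, 23.9, 8.81 and 9.20 CPM. Every injured liver lay above every control, and hAAM-treated livers fell into a high and a low pair. The log2 fold change was 2.62 (SE 0.467, FDR 0.00211) with vehicle, which is 6.14-fold (95% interval 3.04 to 12.4). With hAAMs it was 2.53 (SE 0.476, FDR 0.00484).

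Cx3cr1, the fractalkine receptor carried by patrolling monocytes and many tissue macrophages, was at 1.41, 2.04 and 2.02 CPM in the control livers. In vehicle-treated livers it was at 12.4, 11.7, 5.61, 10.5 and 5.34 CPM, and in hAAM-treated livers at 13.3, 8.85, 3.66 and 5.96 CPM. The groups did not overlap with control, and hAAM replicate 3 was the lowest injured liver for both chemokine receptors. The log2 fold changes were 2.32 (SE 0.436, FDR 0.00274) with vehicle and 2.12 (SE 0.444, FDR 0.00768) with hAAMs.

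Ly6c2 encodes the surface antigen by which classical mouse monocytes are sorted. Its levels were low, at 1.47, 0.771 and 0.316 CPM in control, 1.20, 1.55, 1.26, 2.08 and 1.70 CPM with vehicle, and 2.33, 3.00, 1.57 and 1.21 CPM with hAAMs. These CPM values stood for 16 to 162 counts per liver. Control replicate 1 lay within the range of the injured livers, and the other controls lay below all of them. The log2 fold change of 0.87 (SE 0.417, FDR 0.133) with vehicle and that of 1.25 (SE 0.435, FDR 0.0605) with hAAMs did not pass the test. Without control replicate 1, Ly6c2 passed in both comparisons, with log2 fold changes of 1.50 (FDR 0.0297) and 1.88 (FDR 0.0211), and without control replicate 3 they were 0.49 (FDR 0.379) and 0.86 (FDR 0.169). Without vehicle replicate 3 and hAAM replicate 4, Ly6c2 passed with hAAMs (1.43, FDR 0.0484) and not with vehicle (0.95, FDR 0.117). Ly6c1 had 6 to 46 counts per liver and a log2 fold change of 0.27 (FDR 0.674) with vehicle.

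Trem2, the lipid-sensing receptor of lipid-associated macrophages, was at 0.858, 1.31 and 1.17 CPM in control livers. Vehicle-treated livers had 11.5, 7.03, 4.47, 9.65 and 5.56 CPM, and hAAM-treated livers 11.0, 10.1, 8.68 and 4.59 CPM. All 9 injured livers lay well above the controls, with vehicle replicate 3 and hAAM replicate 4 the lowest of them. The log2 fold change was 2.78 (SE 0.377, FDR 5.0e-04) with vehicle and 2.94 (SE 0.387, FDR 8.3e-04) with hAAMs, or 6.87-fold and 7.70-fold.

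Gpnmb encodes a transmembrane glycoprotein of lysosome-rich macrophages and was at 1.58, 0.503 and 0.178 CPM in control livers, from 83, 32 and 9 counts. Its levels were 28.5, 15.5, 17.2, 11.4 and 15.0 CPM with vehicle and 34.2, 18.9, 59.2 and 17.7 CPM with hAAMs. The single highest liver was hAAM replicate 3, which was lowest in Ccr2 and Cx3cr1. Its log2 fold change was 4.54 (SE 0.649, FDR 7.0e-04) with vehicle, or 23.3-fold (95% interval 8.75 to 62.0). With hAAMs it was 5.43 (SE 0.679, FDR 5.7e-04), or 43.2-fold (95% interval 15.5 to 120.2). The controls differed among themselves 8.90-fold, and without control replicate 1 the log2 fold changes were 5.63 and 6.52.

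Cd9 encodes a tetraspanin of many cell types that is also used to mark lipid-associated macrophages. It was at 15.3, 15.0 and 11.6 CPM in control, 18.9, 18.2, 14.4, 19.9 and 22.1 CPM with vehicle, and 20.6, 19.0, 16.4 and 14.7 CPM with hAAMs. The injured livers that reached into the control range were vehicle replicate 3 and hAAM replicate 4. The log2 fold changes of 0.42 (SE 0.151, FDR 0.0510) and 0.34 (SE 0.157, FDR 0.140) did not pass the test. Without those livers they were 0.51 (FDR 0.0115) and 0.42 (FDR 0.0448), which passed, while without control replicate 3 the value with hAAMs was 0.23 (FDR 0.399).

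Lgals3 encodes galectin-3, a secreted and intracellular lectin made by activated macrophages. Control livers were close together at 3.51, 3.66 and 3.52 CPM. Vehicle-treated livers had 45.7, 32.3, 21.3, 44.3 and 45.2 CPM, and hAAM-treated livers 58.3, 52.7, 44.7 and 22.7 CPM. Even the lowest injured liver, vehicle replicate 3, was far above the controls. The log2 fold changes of 3.40 (SE 0.343, FDR 9.1e-05) with vehicle and 3.64 (SE 0.353, FDR 1.4e-04) with hAAMs correspond to 10.6-fold and 12.5-fold.

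Mmp12, the macrophage elastase, cleaves extracellular matrix. It was at 1.09, 0.409 and 0.316 CPM in control livers, from 57, 26 and 16 counts. In vehicle-treated livers it reached 29.1, 16.9, 9.76, 22.7 and 18.9 CPM, and in hAAM-treated livers 25.0, 31.1, 16.6 and 9.45 CPM. No injured liver came near the control range, and vehicle replicate 3 and hAAM replicate 4 were again the lowest of them. Its log2 fold changes were 5.02 (SE 0.565, FDR 1.8e-04) with vehicle and 5.09 (SE 0.573, FDR 3.0e-04) with hAAMs, or 32.4-fold and 34.1-fold. Without control replicate 1 they were 5.73 and 5.80.

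Spp1 encodes osteopontin, a secreted ligand of CD44 and integrins that is made by macrophages and also by bile duct cells. It was at 23.6, 18.1 and 34.1 CPM in control livers. In vehicle-treated livers it was at 78.8, 49.5, 31.4, 252.9 and 77.7 CPM, and in hAAM-treated livers at 190.6, 194.6, 44.6 and 31.2 CPM. Spp1 was spread more widely within the injured groups than any other member, and vehicle replicate 3 and hAAM replicate 4 lay inside the control range. The log2 fold changes of 1.96 (SE 0.760, FDR 0.0704) and 2.19 (SE 0.787, FDR 0.0675) did not pass. Leaving out those livers gave 2.19 (FDR 0.0277) with vehicle and 2.51 (FDR 0.0277) with hAAMs. Without vehicle replicate 4, the highest liver, the value with vehicle was 1.23 (FDR 0.166). The summed CPM of 5 cholangiocyte markers was 22.4 to 41.99 in control, 33.2 to 52.5 with vehicle and 19.4 to 36.8 with hAAMs, none of the 5 passed the test, and their part in the Spp1 values was not tested.

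Fabp5, an intracellular fatty acid carrier counted among the lipid-associated macrophage markers, went the other way. Control livers had 64.5, 78.9 and 52.2 CPM, vehicle-treated livers 11.4, 8.69, 19.3, 11.8 and 12.3 CPM, and hAAM-treated livers 13.1, 11.0, 15.8 and 19.9 CPM. Every injured liver was below every control, and the highest injured livers were vehicle replicate 3 and hAAM replicate 4. Fabp5 was 5.15-fold lower with vehicle (95% interval 3.59 to 7.37, log2 fold change −2.36, SE 0.238, FDR 9.1e-05). It was 4.36-fold lower with hAAMs (95% interval 2.97 to 6.41, log2 fold change −2.12, SE 0.255, FDR 4.7e-04).

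**Figure D2:**
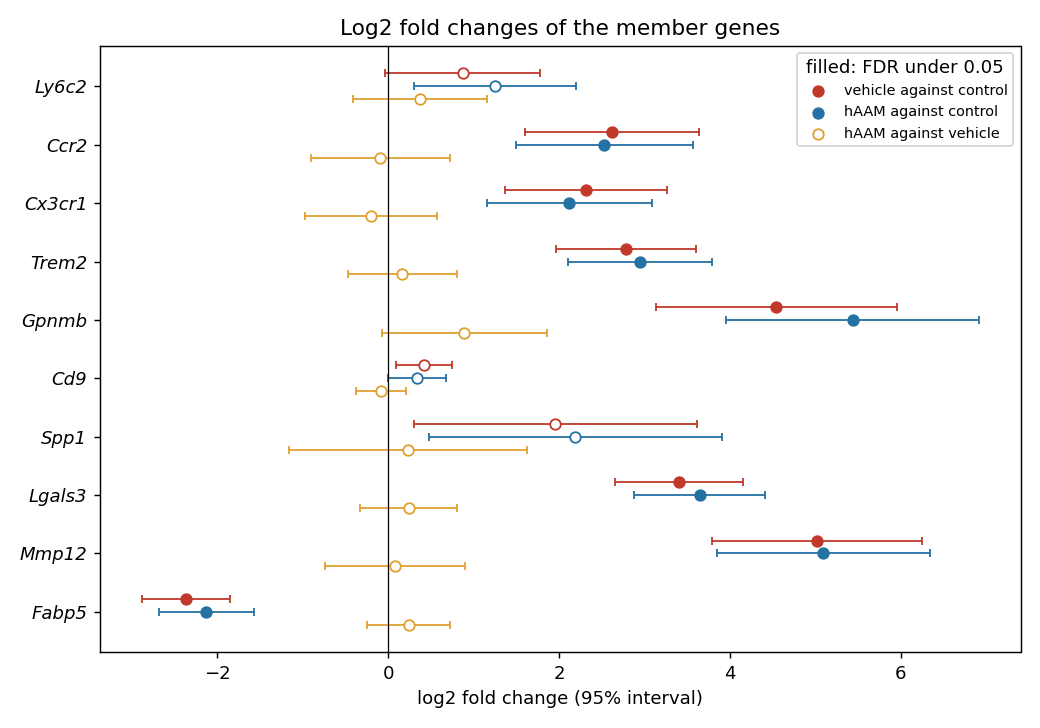
Log2 fold changes of the 10 genes (horizontal axis) with 95% intervals from edgeR in the 3 comparisons, with filled points at an FDR under 0.05. The points of vehicle against control and hAAM against control lie side by side for every gene, and all 10 intervals of hAAM against vehicle contain 0.

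Per length, the members also differed in abundance. With CPM divided by the length in kilobases of the longest coding transcript, Fabp5 had the highest mean level in control livers, at 66.1 ± 13.5 (SD, n = 3). Spp1 followed at 16.8 ± 5.41 and Cd9 at 11.4 ± 1.69, whose ranges of mean and SD overlap. In vehicle-treated livers Spp1 was first at 65.1 ± 58.9 (SD, n = 5), followed by Lgals3 at 26.6 ± 7.58, Cd9 at 15.2 ± 2.31 and Fabp5 at 12.8 ± 4.01. In hAAM-treated livers the order of these 4 genes began with Spp1 at 76.5 ± 59.4 (SD, n = 4) and Lgals3 at 31.4 ± 11.0, and Fabp5 and Cd9 were at 15.2 ± 3.93 and 14.4 ± 2.14. The first places were not separated beyond their spread in either injured group. Mmp12 had the lowest mean level per length in control livers, at 0.167 ± 0.117, which overlapped with Gpnmb at 0.204 ± 0.199. With the length of all annotated exons in place of the coding transcript, Fabp5 at 18.3 ± 3.74 and Spp1 at 15.3 ± 4.95 overlapped in control livers.

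Between hAAM-treated and vehicle-treated livers, 0 of the 10 genes passed, as did 0% of all genes tested with edgeR. The nearly alike livers, vehicle replicate 3 and hAAM replicate 4, stood on opposite sides of this comparison. Without them edgeR again called 0 genes. DESeq2 called 1 gene with all livers and 88 without that pair, and no member was among them. The values below include both livers. No member had an unadjusted p under 0.05, which 5.02% of all genes had, and none had groups without overlap, which 1.40% of all genes had. The largest difference was that of Gpnmb, with a log2 fold change of 0.89 (SE 0.442, FDR 0.966) and a 95% interval of −0.07 to 1.85. Its hAAM replicates 1 and 3 lay above every vehicle-treated liver, and the other hAAM replicates lay within the vehicle range. The next largest was Ly6c2 at 0.38 (95% interval −0.41 to 1.16), with hAAM replicates 1 and 2 above every vehicle-treated liver. Lgals3 (0.24, 95% interval −0.33 to 0.81), Fabp5 (0.24, −0.25 to 0.73), Trem2 (0.16, −0.47 to 0.80) and Mmp12 (0.08, −0.74 to 0.89) had positive values. Ccr2 (−0.09, 95% interval −0.90 to 0.72), Cx3cr1 (−0.20, −0.97 to 0.57) and Cd9 (−0.08, −0.38 to 0.21) had negative ones. Precision differed between the members, from Cd9 with the narrowest interval to Spp1 at 0.23 with an interval of −1.15 to 1.62, which leaves room for a difference of 3.07-fold upwards.

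Differences between mice of one group were large, and the genes shared them in part. Among the 9 injured livers, and over the 9 genes without Fabp5, hAAM replicate 1 was among the highest 3 livers for all 9 genes and hAAM replicate 2 for 6. Vehicle replicate 3 was among the lowest 3 for 8 genes and hAAM replicate 4 for 7. Within the hAAM group, livers thus stood at both ends of the injured range, and hAAM replicate 3 was among the lowest 3 for 5 genes and the highest for Gpnmb.

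After the group mean of log2 CPM had been removed, Pearson's r over the 12 livers was 0.84 between Ccr2 and Spp1, 0.82 between Trem2 and Lgals3, 0.81 between Cd9 and Lgals3, and 0.80 between Ccr2 and Mmp12. These are descriptions over livers that share library depth and scaling. Without vehicle replicate 3 and hAAM replicate 4 the same values over 10 livers were 0.76, 0.39, 0.56 and 0.69, so the likeness of Trem2 and Lgals3 rested largely on those livers. Gpnmb had r between −0.25 for Cx3cr1 and 0.51 for Mmp12. Fabp5 had negative r with every member but Gpnmb (0.15), the strongest being −0.65 with Lgals3, which became 0.32 over the 10 livers.

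**Figure D3:**
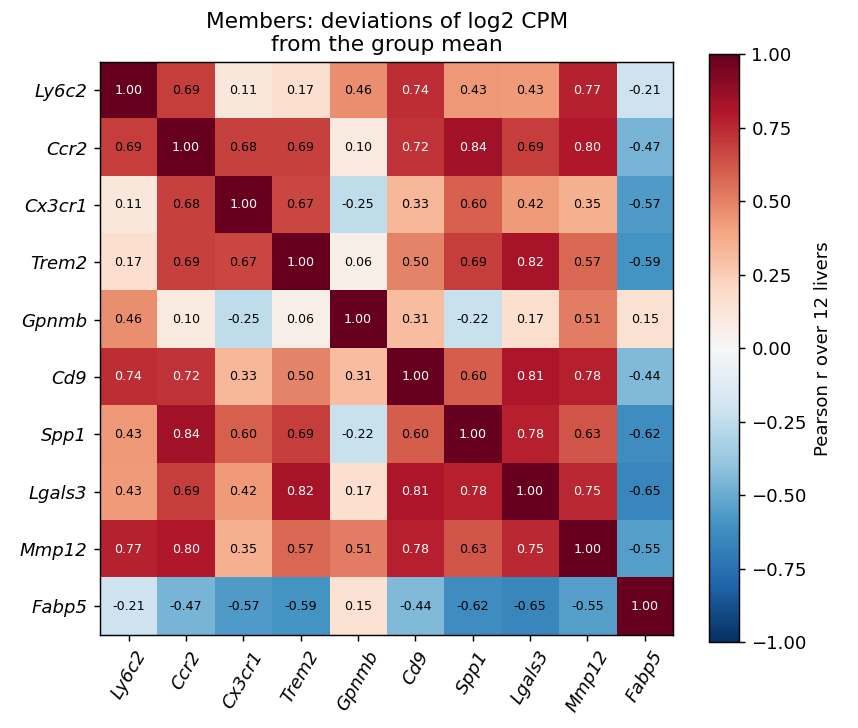
Pearson's r between pairs of the 10 genes over 12 livers, from deviations of log2 CPM from the mean of each group, with red for positive and blue for negative r. Ccr2, Cd9, Spp1, Lgals3 and Mmp12 form a block of positive r between 0.60 and 0.84, which ran from 0.26 to 0.76 without vehicle replicate 3 and hAAM replicate 4, while the Gpnmb and Fabp5 rows stand apart.

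Likeness was searched among 13189 genes whose log2 CPM averaged 1 or more. The 2 highest of so many r values over 12 livers are high partly because they were picked, and shared regulation was not tested. The pattern most like that of Ccr2 was that of Tspan3, which encodes a tetraspanin, and of Ms4a6c, both at r = 0.98. For Trem2 these were Otulinl and Snx5, which encodes a sorting nexin, both at 0.99, and for Mmp12 the signalling adaptor gene Tradd at 0.99 and the Toll-like receptor gene Tlr1 at 0.97. Gpnmb was most like Abi3bp (0.94) and Ubr1 (0.93), and Spp1 most like Mbp and the protease gene Adam10, both at 0.96. For Lgals3 the leading genes were the inhibitory receptor gene Cd200r1 and the leukocyte tetraspanin gene Cd37, at 0.96 and 0.95, and these fell to 0.85 and 0.67 without vehicle replicate 3 and hAAM replicate 4. Ly6c2 was most like the interferon receptor gene Ifnar1 (0.98) and Fancc (0.96), Cx3cr1 like E2f1 and Ttc5 (both 0.96), and Cd9 like Rpl7a (0.96) and Fut8 (0.94). The value for Cd9 and Fut8 was 0.87 without vehicle replicate 3 and hAAM replicate 4. Fabp5 had Gm23119 (0.94) and 1700001L05Rik (0.91) as its nearest genes, at 0.85 and 0.73 without vehicle replicate 3 and hAAM replicate 4.

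The ligands of CCR2 and CX3CR1 gave no call in either comparison with control. Of 5 tested genes for monocyte chemoattractants and growth factors, 1 was higher with vehicle (all genes 15.0%) and 0 with hAAMs (10.7%). That gene was Il34, a ligand of the CSF1 receptor, with a log2 fold change of 1.46 (FDR 0.00939) with vehicle and 0.91 (FDR 0.0901) with hAAMs. Ccl2, the main ligand of CCR2, was at 34.1, 1.97 and 0.929 CPM in control, 10.5, 13.2, 5.61, 22.4 and 18.9 CPM with vehicle, and 15.7, 18.6, 1.34 and 4.69 CPM with hAAMs. The highest of all 12 livers was a control, and the log2 fold changes were 0.20 (FDR 0.901) with vehicle and −0.29 (FDR 0.871) with hAAMs. Control replicate 1 was also the highest liver in Ccl7, at 5.91 CPM against 0.377 and 0.178 CPM in the other controls, and in Csf1, at 72.5 CPM against 21.97 and 22.7 CPM. Ccl12 had 0 to 32 counts and was not tested, and Ccl8 was not found by symbol among the genes of the count table. Cx3cl1, the ligand of CX3CR1, had a log2 fold change of 0.06 (FDR 0.894) with vehicle.

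Most genes of classical monocytes were higher in injured livers, as Ccr2 was. Of 11 tested, 8 were higher and 0 lower with vehicle, and the same 8 were higher with hAAMs: Vcan, F13a1, Ms4a4c, S100a4, Itgam, Lyz2, Ccr1 and Fcgr1. The median log2 fold change of the list was 1.52 with vehicle and 1.53 with hAAMs. Over all genes tested, 15.0% were higher with vehicle and 10.7% with hAAMs. F13a1, which encodes a coagulation factor subunit of monocytes and macrophages, rose from 1.02 ± 0.560 CPM (SD, n = 3) to 16.6 ± 8.79 (n = 5) and 13.6 ± 8.28 CPM (n = 4), with log2 fold changes of 4.03 (FDR 0.00135) and 3.75 (FDR 0.00372). Vcan, which encodes the proteoglycan versican, rose by 3.23 (FDR 0.00342) and 2.89 (FDR 0.00981) on the log2 scale. S100a4 had 0, 0 and 1 counts in control livers, 24, 11, 6, 23 and 17 with vehicle, and 13, 27, 12 and 8 with hAAMs. The lectin gene Clec4e did not pass, with a log2 fold change of 0.82 (FDR 0.503) with vehicle. Its controls were far apart, at 0.0593, 0.267 and 2.84 CPM from 3, 17 and 149 counts. Injured livers ran from 0.813 to 3.06 CPM with vehicle and from 0.765 to 3.19 CPM with hAAMs.

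Of 8 genes of non-classical monocytes, 2 were higher in both comparisons, Ace and Spn, and the median was 0.17 with vehicle and 0.11 with hAAMs. Over all genes tested, 15.0% were higher with vehicle and 10.7% with hAAMs. Beside these shares, 2 calls among 8 genes do not set the list apart. Ace, which encodes the angiotensin-converting enzyme, had log2 fold changes of 2.17 (FDR 0.00123) and 2.01 (FDR 0.00369). Spn, the gene of CD43, had 0.94 (FDR 0.00824) and 1.17 (FDR 0.00588). Adgre4 was at −0.44 (FDR 0.142) and Treml4 at 0.37 (FDR 0.194) with vehicle.

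In the signalling list of TREM2, 2 of 5 genes were higher in both comparisons, beside 15.0% and 10.7% of all genes tested. The adaptor gene Tyrobp, whose protein carries the signal of TREM2, was at 6.44, 7.05 and 6.34 CPM in control, 20.7, 13.5, 9.43, 18.8 and 12.6 CPM with vehicle, and 21.2, 17.7, 14.9 and 10.4 CPM with hAAMs. No injured liver reached down to the controls, and the log2 fold changes were 1.18 (FDR 0.00675) and 1.28 (FDR 0.00894), smaller than those of Trem2. Plcg2, the phospholipase downstream of the receptor, rose by 1.04 (FDR 0.00421) and 1.09 (FDR 0.00649). Apoe, a lipoprotein ligand of TREM2 that hepatocytes make in bulk, fell by 0.56 on the log2 scale with vehicle (FDR 0.0463), which did not pass with scaling by library size alone (−0.22, FDR 0.225), and its value with hAAMs was −0.46 (FDR 0.134). Hcst and the kinase gene Syk were at 1.05 (FDR 0.0570) and 0.44 (FDR 0.143) with vehicle.

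Of the 18 other genes of the lipid-associated macrophage programme, 10 were higher and 1 lower with vehicle, and 10 were higher and 0 lower with hAAMs. The median log2 fold changes were 0.91 and 1.19. Higher genes made up 15.0% and 10.7% of all genes tested, and lower ones 14.8% and 9.96%. Cd68, a lysosomal membrane protein of macrophages, was at 9.48 ± 0.825 CPM in control (SD, n = 3), 44.0 ± 7.79 with vehicle (n = 5) and 40.5 ± 9.20 with hAAMs (n = 4). Its log2 fold changes were 2.21 (FDR 4.4e-05) and 2.09 (FDR 1.3e-04). The tetraspanin gene Cd63 and the actin-capping gene Capg rose by 2.97 (FDR 0.00123) and 2.89 (FDR 0.00135) with vehicle, and by 2.79 (FDR 0.00327) and 2.98 (FDR 0.00244) with hAAMs. Lpl, Fabp4, Itgax, Clec7a, Abcg1 and Cd36 were higher in both comparisons, Msr1 with vehicle and Ctsd with hAAMs, while the cholesterol exporter gene Abca1 was lower with vehicle. The protease gene Ctsb was at 0.17 (FDR 0.312) with vehicle and 0.29 (FDR 0.128) with hAAMs. The fatty acid carrier genes Fabp4 and Fabp5 thus had opposite directions in both comparisons.

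Among 13 transcription factors of macrophages, 5 were higher and 2 lower with vehicle, and 4 were higher and 1 lower with hAAMs. Over all genes tested, 15.0% were higher and 14.8% lower with vehicle, and 10.7% and 9.96% with hAAMs. The lower calls are thus near the share of all genes. Tfe3 was lower in both comparisons and Nr1h3 with vehicle, at −0.28, which turned to 0.07 (FDR 0.539) with scaling by library size alone. The list medians were −0.02 and 0.09. Bhlhe41 had log2 fold changes of 2.10 (FDR 2.6e-04) and 1.63 (FDR 0.00219), and Klf4 of 1.12 (FDR 0.00523) and 0.90 (FDR 0.0252). Tfe3, a MiT family member that drives lysosomal genes, fell by 0.58 (FDR 0.00317) and 0.49 (FDR 0.0141) on the log2 scale, and with scaling by library size alone its values of −0.23 and −0.18 did not pass. Among 8 receptors and partners of the member proteins, 4 were higher in each comparison and 0 lower, with medians of 0.42 and 0.39. Cd44, the osteopontin and hyaluronan receptor, rose by 1.80 (FDR 0.00478) and 1.65 (FDR 0.0124), and the integrin gene Itgb3 by 1.47 (FDR 3.3e-04) and 1.16 (FDR 0.00254).

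Genes shared by all macrophages gave no call in either comparison with control, at 0 of 9 each, with medians of 0.35 and 0.36. This depended on the scaling, since 7 and 4 of the 9 were higher when library size alone was used. Csf1r, the receptor for CSF1 and IL-34, was at 0.35 (FDR 0.212) and 0.36 (FDR 0.251), and Cd14 at 1.42 (FDR 0.0877) and 0.92 (FDR 0.299). Of 7 Kupffer cell markers, 1 was higher in both comparisons, the scavenger receptor gene Marco, named after its values were seen. Over all genes tested, 15.0% were higher with vehicle and 10.7% with hAAMs, so 1 of 7 is near the share of all genes. Clec4f, a defining Kupffer cell lectin, was at 75.8 ± 13.1 CPM in control (SD, n = 3), 54.5 ± 13.05 with vehicle (n = 5) and 59.2 ± 16.6 with hAAMs (n = 4), at FDR 0.126 and 0.303. Between hAAM-treated and vehicle-treated livers, 0 genes passed in each of these lists.

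**Figure D4:**
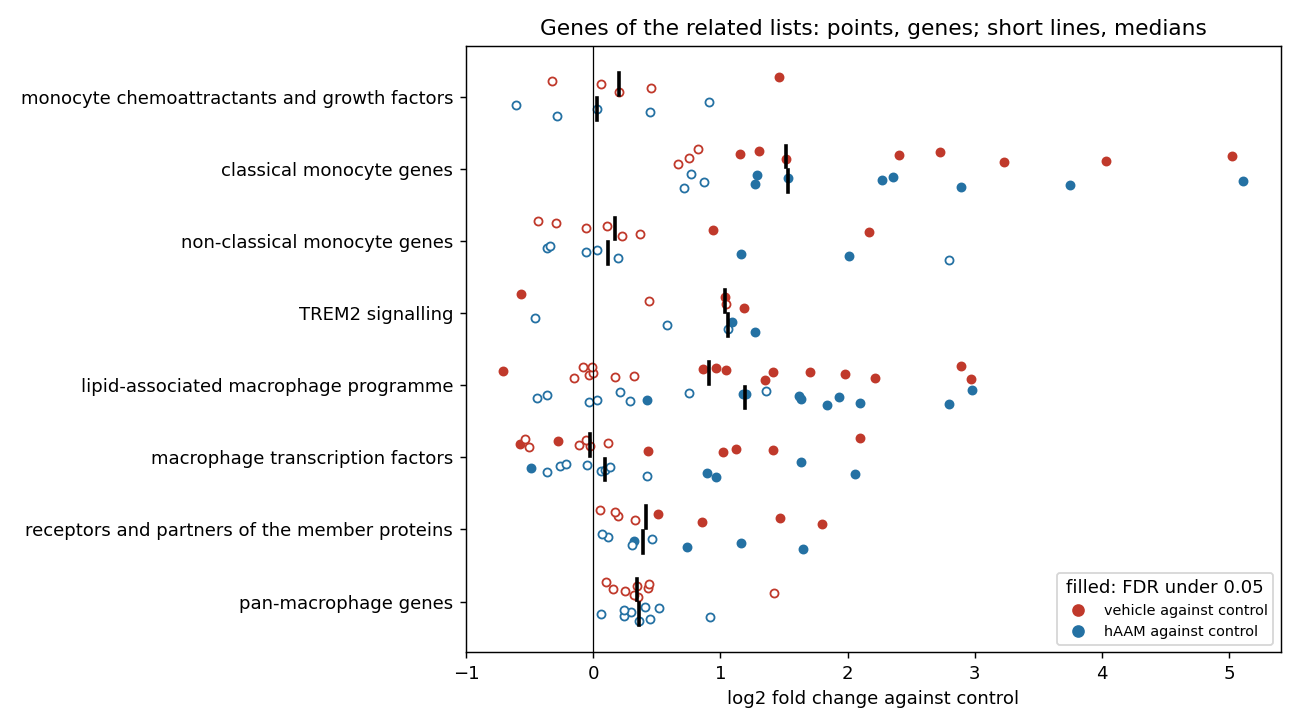
Log2 fold changes against control (horizontal axis) of the genes in 8 related lists, one point per gene, filled at an FDR under 0.05, with short lines at the list medians. Classical monocyte genes lie at or above 0.67 in both comparisons, with a median of 1.52 with vehicle, while the pan-macrophage genes have a median of 0.35 with vehicle, with Cd14 at 1.42, and hold no filled point.

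Some markers of other cell types were called as well, and their part in the member genes was not tested. Of all genes tested, 15.0% were higher and 14.8% lower with vehicle, and 10.7% and 9.96% with hAAMs. Beside these shares, 1 or 2 calls among 5 or 6 genes do not set a list apart. Of 7 neutrophil markers, 0 passed in either comparison, with medians of 1.12 and 1.10, and their summed CPM, led by Csf3r, was 8.04 to 32.6 in control, 12.4 to 59.9 with vehicle and 13.5 to 53.4 with hAAMs. Of 5 platelet and megakaryocyte markers, 3 were higher with vehicle (Pf4, Ppbp and Gp9) and 1 with hAAMs (Pf4), with summed CPM, led by Itga2b, of 4.80 to 5.15, 6.80 to 16.9 and 5.40 to 12.1. The stellate cell markers Des and Pdgfrb (2 of 6) and the sinusoidal endothelial markers Lyve1 and Oit3 (2 of 6) were higher in both comparisons. Other genes of these lists went the other way, and 0 of them passed as lower. Sinusoidal Clec4g was at 34.99 to 36.2 CPM in control, 15.2 to 29.6 with vehicle and 14.3 to 27.7 with hAAMs. Every injured liver thus lay below every control for Clec4g. The mean of stellate Colec11 was 19.6 CPM in control, 13.3 with vehicle and 14.7 with hAAMs. Of 5 dendritic cell markers, 1 was lower with vehicle, Xcr1, which did not pass with scaling by library size alone (−0.86, FDR 0.0582), where Clec9a and Flt3 were higher. The lists for T and NK cells (6 tested), B cells (5) and hepatocytes (6, led by Alb) gave no call in any comparison.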

How the data were processed

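Livers of 12 mice were analysed by bulk RNA sequencing, with groups and replicate numbers taken from the sample labels. The authors trimmed reads with Cutadapt 4.6, aligned them to GRCm38 with STAR 2.7.1a and used summarizeOverlaps for counting on Ensembl genes, and the deposited values are raw counts. The counting mode and strand setting are not given in the sources used here, so overlapping, antisense and near-identical genes may have exchanged reads. GENCODE M21 gave symbols for 24128 of 24187 genes.

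Counts were analysed with edgeR 4.0.16 in R 4.3.3. Genes with few counts were filtered out (filterByExpr by group), libraries were TMM-scaled, and one quasi-likelihood model of all 12 livers gave log2 fold changes with SE, two-sided p-values and an FDR by Benjamini-Hochberg over all 22581 genes tested, with a threshold of 0.05. log2 CPM carried a prior count of 2. A 95% interval was the log2 fold change plus and minus the t quantile times its SE. A large difference can fail to pass where livers of a group are far apart, as Spp1 did with vehicle (log2 fold change 1.96, FDR 0.0704). How small a difference the test could find between hAAM-treated and vehicle-treated livers was not tested. Nothing in the labels ties a replicate to more than its mouse, so p-values measure the spread between these livers. The p-values take vehicle replicate 3 and hAAM replicate 4 as separate mice, which was not tested. Depth per liver was 47391650 to 74056505 counts, and what this depth limits was not tested.

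The members and lists were chosen with earlier results of these data known. By the naming rule, the text names the members, their ligands, receptor and paralog, up to 3 called and 2 uncalled genes per related list, the most abundant gene of a marker list, and the 2 genes most like each member. Further genes behind a count are named without values. Ddx3y and Xist were added for the sex of the mice, and Clec4g and Colec11 after their values were seen. Alternatives were DESeq2 1.42.0, other scaling and filters, the groups compared alone, robust estimation, a replicate block, and leaving out each liver or the nearly alike pair. DESeq2 without that pair was chosen after seeing the data. The near-identical paralog check compared 50-base stretches of GENCODE transcripts.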

Additional observations from a re-analysis of the deposited data

How the results depend on the processing

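The 30 log2 fold changes of the member genes were recomputed 657 times. Of these values, 615 kept their direction and their side of the threshold, 33 newly passed it, 0 stopped passing it and 9 turned, all 9 of them between hAAM-treated and vehicle-treated livers and all on leaving out a single liver. In that comparison, leaving out 1 liver at a time moved Ccr2 between −0.35 and 0.18, Cx3cr1 between −0.56 and 0.04, Spp1 between −0.14 and 0.96 and Mmp12 between −0.19 and 0.32. Positive values came for Ccr2 without vehicle replicate 4 (0.18), hAAM replicate 3 (0.11) or hAAM replicate 4 (0.10), and for Cx3cr1 without hAAM replicate 3 (0.042). Negative ones came for Spp1 without hAAM replicate 1 (−0.12) or 2 (−0.14), and for Mmp12 without vehicle replicate 3 (−0.09), hAAM replicate 1 (−0.03) or hAAM replicate 2 (−0.19). The count of members called ranged from 7 to 10 with vehicle and from 6 to 10 with hAAMs, and it was 0 in the direct comparison under every alternative. DESeq2 called 9 members in each comparison with control. Without the nearly alike livers edgeR called 9 and 10, and DESeq2 9 and 10. In the direct comparison of all genes, DESeq2 called 1 gene with all livers and 88 without that pair, where edgeR called 0, and no member was among them. With library size in place of TMM, the median over all genes tested moved to 0.36 and 0.32 on the log2 scale and all 10 members were called, Fabp5 still lower. The genes called in the related lists then numbered 55 with vehicle (54 higher and 1 lower) in place of 36 (32 and 4), and 47 with hAAMs (47 and 0) in place of 31 (30 and 1). A minimum of 10 counts in every liver removed Gpnmb. The replicate numbers did not pair the livers: of 10 pairs with the same number, r ran from −0.46 to 0.38 and 3 were over 0.1. With the replicate block, 7, 7 and 0 members were called.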
